A study of Mus musculus with 24 samples.

Results

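Peritoneal mesothelium was compared with pleural and pericardial mesothelium, probe by probe and with arrays of the same replicate number taken as pairs. Of 24 arrays in the series, the comparison used 6, with 3 arrays for each mesothelium source. Of 46120 probes on the array, 12193 were kept because every array of 1 source or of both detected them, where detected means a detection score above 0.99, that is, a signal above more than that share of the negative-control beads. The 2 groups were mesothelium of the peritoneum and mesothelium of pleura and pericardium together, both from untreated male C57BL/6 mice of 7 weeks, with no transgene or mutation named in the labels. Pleura and pericardium were combined by the authors before hybridization, so that no value here belongs to either alone, and the tissue of many mice went into each source. Nothing in the labels says that the 3 arrays of a source hold RNA of separate animals, and all p-values therefore measure only the spread between these arrays, which may be technical. The other 18 arrays hold liver, heart, lung, bladder, adipose and skeletal muscle, and were used to set the scale and to describe where a gene was high.

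Mesothelium is a single layer of flat epithelial cells that covers the walls and organs of the serous cavities and secretes a lubricating fluid. It arises from lateral plate mesoderm, carries keratins together with mesothelin and the transcription factor Wt1, and rests on a thin collagenous layer. Beneath and within it lie clusters of lymphocytes and macrophages, best known in the omentum, the pleural space and the fat around the pericardium. The peritoneum borders the gut, pancreas and liver, and the pleura and pericardium border the lung, heart, chest wall and thymus.

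Each level is the log2 normalized intensity on 1 array and each difference is peritoneal minus pleural and pericardial on that scale, so that a difference of 1 is a 2-fold change. Gene names come from the study's supplementary tables or from the immunoglobulin and T cell receptor identifiers of the probes. A dagger marks a name read instead from the NCBI gene number inside the probe identifier. That reading gave the table's gene for 92 of 97 probes that had both, and the other 5 were members of the defensin and immunoglobulin kappa families. It also put 8 of 8 marker probes of muscle, liver, fat and heart cells highest in their own tissue among the 6 other tissues. The margin was small for the fat probe, Fabp4†, at 7.11 in adipose against 6.48 in the next tissue. The sources contributed unequal amounts to the supplementary tables, which list 265 probes of this array as enriched in peritoneal mesothelium alone and 144 in pleural and pericardial mesothelium alone. These tables were built on the same arrays, so a list of genes named from them is no independent evidence of direction.

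Primer pairs that the study used for quantitative PCR of 5 of the genes described below are shown next. All levels given here come from array probes instead. The sequences of those probes were not available, so the primers do not identify what the probes read. Wnt2b lies on chromosome 3, Saa3 on chromosome 7, Msln on chromosome 17, Cxcl13 on chromosome 5 and Tbata on chromosome 10, and each primer has 20 bases.
Wnt2b forward primer: tgtgtcaacgctacccagac
Wnt2b reverse primer: ggtccagtgtggtgcaattc
Saa3 forward primer: gctggcctgcctaaaagata
Saa3 reverse primer: gcacattgggatgtttaggg
Msln forward primer: acctgaagaccgaggaggat
Msln reverse primer: aagtccaggaccaggtagcc
Cxcl13 forward primer: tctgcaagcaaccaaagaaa
Cxcl13 reverse primer: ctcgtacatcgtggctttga
Tbata forward primer: gggacgagttctctctgtcg
Tbata reverse primer: gttccgattggactgtggat

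Between 12470 and 13334 probes were detected on the peritoneal arrays, and between 12176 and 13441 on the pleural and pericardial arrays. Of the probes kept, 10066 were detected on all 6 arrays, 232 on all 3 peritoneal arrays and no pleural and pericardial array, and 409 on all 3 pleural and pericardial arrays and no peritoneal array. Levels correlated across probes at 0.946 to 0.968 among peritoneal arrays, at 0.95 to 0.96 among pleural and pericardial arrays, and at 0.823 to 0.864 between the sources. With the replicate number as a block, limma called 2415 probes higher in peritoneal mesothelium, or 19.8% of those kept, and 1906 probes lower, or 15.6%, at a Benjamini-Hochberg adjusted p under 0.05. Without the block the counts were 1210 and 1050, and all 2260 of these probes were also called in the blocked fit. Their sign could not differ, because the block leaves each difference unchanged. Every peritoneal array lay above every pleural and pericardial array for 19.6% of probes, and the opposite held for 15.7%. The median difference over all probes kept was 0.04, with quartiles of -0.28 and 0.37, and the normalization, which gives every array the same distribution of levels, holds this median near 0.

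The threshold in the methods of the study, 2-fold with a B-statistic over 0, was passed by 774 probes higher in peritoneal mesothelium (6.35%) and by 744 probes lower (6.10%). Among the 12 named probes with the largest difference in each direction, with at most 3 immunoglobulin identifiers admitted, 11 of those higher in peritoneal mesothelium belonged to Paneth cell defensins and the remaining 1 to the homeobox gene Nkx2-3. Those in the other direction were immunoglobulin probes, Tbata of the thymus, and Ckmt2†, Fabp3†, Myl7† and Eef1a2† of striated muscle. In bulk tissue, fewer cells of a type and less RNA per cell cannot be told apart, and this holds for each difference below.

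**Figure D1:**
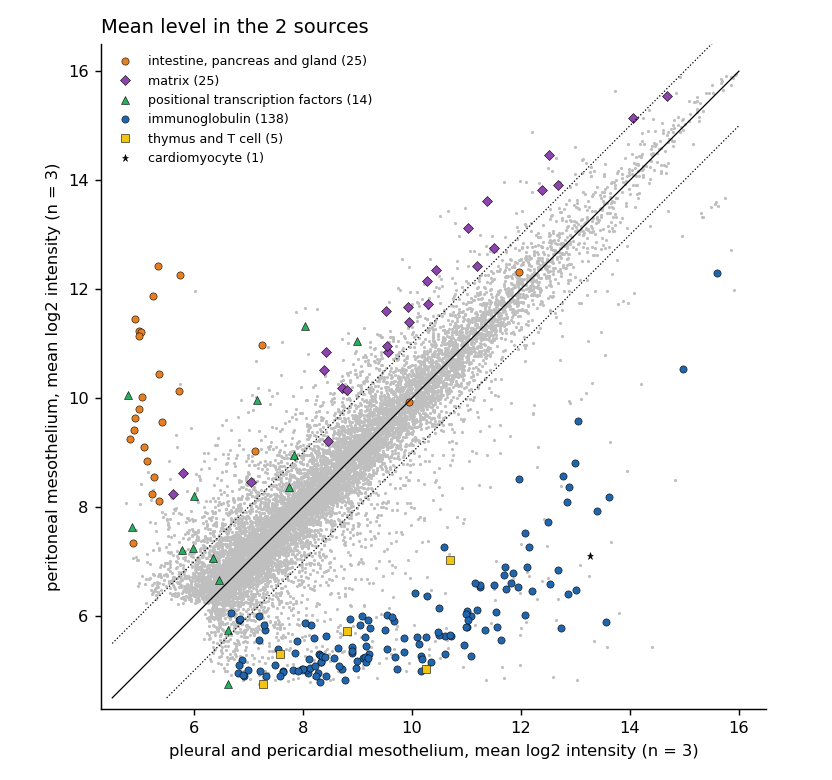
Mean log2 normalized intensity of each of 12193 probes in peritoneal mesothelium (y axis) against pleural and pericardial mesothelium (x axis), n = 3 arrays each, with the line of equal level solid and 2-fold lines dotted. Coloured symbols mark listed genes, and the intestinal, pancreatic and gland probes stand far above the line while 138 immunoglobulin probes, the thymus and T cell probes and Myl7† stand below it.

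Mesothelial markers were compared between the sources first, which does not test the identity of either. Of a list of 20 mesothelial marker probes, among them mesothelin, Upk3b of the uroplakin family, the mucin Muc16 and the keratins, 18 were kept, and none of these was detected on all arrays of 1 source and no array of the other. Of these 18 probes, 13 were higher in peritoneal mesothelium, none was lower, and 5 did not pass, with a median difference of 1.15 over those kept and 1.10 over all 20. Over all probes kept, 19.8% were higher and 15.6% lower. Of the 18, 15 were named by the study's tables, which were built on these arrays as lists of genes enriched in mesothelium. Msln, the cell surface glycoprotein mesothelin, had 11.97, 11.86 and 11.82 in peritoneal mesothelium, against 10.74, 10.71 and 10.85 in pleural and pericardial mesothelium. The 2 groups of Msln levels were separated by more than their own range, and the difference was 1.12 ± 0.14 (SE, adjusted p = 0.000949 from limma). Wt1, the zinc finger transcription factor required for formation of the mesothelium and its mesenchymal derivatives, had 12.73, 12.70 and 12.53 in peritoneal mesothelium, against 11.33, 11.55 and 10.84 in pleural and pericardial mesothelium. Its difference of 1.42 was 2.67-fold (adjusted p = 0.000598 from limma), and Muc16, the mucin that carries the CA125 epitope, differed by 1.41.

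The genes that the study took to in-situ hybridization as mesothelial candidates were all higher in peritoneal mesothelium, against 19.8% of all probes kept. The study chose them from its lists built on these arrays. Apart from Lrrn4, Nkain4 and a probe of Upk3b, they came from its class for peritoneal mesothelium alone. Their direction was thus largely fixed by that choice. The largest difference was 2.28 for Igfbp6, a binding protein of insulin-like growth factor, which had 13.86, 14.06 and 13.98 in peritoneal mesothelium, against 11.62, 11.52 and 11.93 in pleural and pericardial mesothelium. Prg4, the lubricant proteoglycan lubricin, followed at 1.89 and the others were 1.57 for Selp, 1.52 for Fam180a, 1.43 for the prostacyclin synthase gene Ptgis, 1.31 for Lrrn4, 0.99 for the metalloproteinase gene Mmp23 and 0.63 for Nkain4. The 3 probes of Upk3b gave 1.25, 1.18 and 1.09. The adjusted p from limma was 0.0125 for Nkain4 and 0.00328 or less for the others.

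The pairing of arrays changed what could be seen for some of these genes. Selp, the adhesion molecule P-selectin, had 9.43, 11.31 and 10.81 in peritoneal mesothelium, against 7.98, 9.60 and 9.26 in pleural and pericardial mesothelium, and these ranges overlapped. Within the pairs, however, the Selp difference was 1.45, 1.71 and 1.55, and the adjusted p from limma was 0.000238 with the replicate block and 0.102 without it. For the Upk3b probe with 9.29, 9.42 and 11.26 in peritoneal mesothelium, against 8.55, 7.78 and 10.09 in pleural and pericardial mesothelium, it was 0.00328 with the block and 0.314 without it. Nkain4 was also lost without the block, at an adjusted p of 0.0632 from limma.

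Some mesothelial markers did not pass. Has1, a hyaluronan synthase, had 7.28, 7.09 and 6.87 in peritoneal mesothelium, against 6.96, 7.45 and 7.95 in pleural and pericardial mesothelium, and its difference of -0.37 had an adjusted p of 0.299 from limma. Aldh1a2, which makes retinoic acid and marks embryonic mesothelium, differed by 0.49 (adjusted p = 0.0602 from limma), while Krt18† differed by 0.52 (adjusted p = 0.0525 from limma). Krt8† and Krt19†, keratins of simple epithelia, were higher by 1.47 and 1.54. The largest differences in the list were those of Rspo1, a secreted Wnt agonist, at 1.95 and of the cadherin Cdh3 at 1.92.

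**Figure D2:**
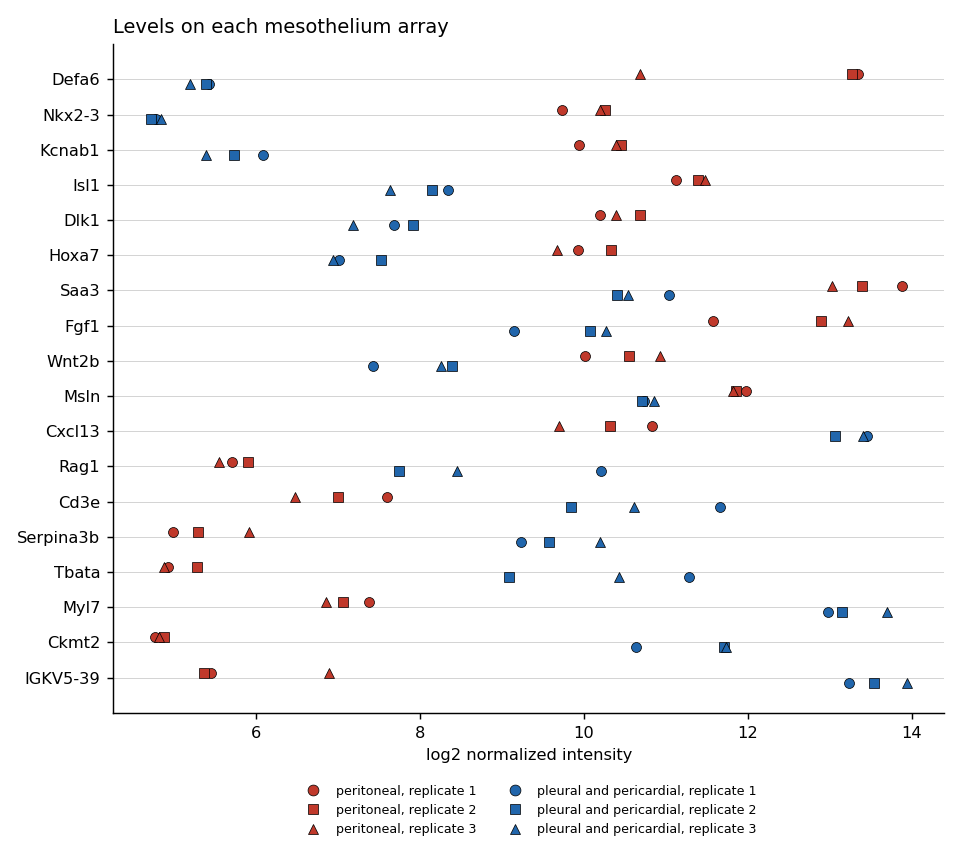
Log2 normalized intensity of 18 genes on each of the 6 mesothelium arrays, with peritoneal arrays in red, pleural and pericardial arrays in blue and a symbol for each replicate number. The groups do not overlap for any gene drawn, from Defa6 with peritoneal levels of 10.69 to 13.34 down to IGKV5-39 with pleural and pericardial levels of 13.23 to 13.94.

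Transcription factors that mark positions along the body axis and in the gut wall differed between the sources for most probes kept. Of 28 probes in this list 14 were kept, of which 11 were higher in peritoneal mesothelium, 2 were lower and 1 did not pass. Over all probes kept, 19.8% were higher and 15.6% lower. Of the 14, 3 were detected in peritoneal mesothelium only and 2 in pleural and pericardial mesothelium only, and had to differ in that direction. Another limit is that 7 of those kept were named from gene numbers and 7 by the study's tables, built on these arrays. The median difference was 1.36 over those kept and 0.52 over all 28. Nkx2-3, a homeobox factor of gut and spleen mesenchyme, had 9.73, 10.25 and 10.20 in peritoneal mesothelium, against 4.79, 4.72 and 4.84 in pleural and pericardial mesothelium, where it was detected on no array. Nkx2-3 was thus higher by at least 15.1-fold (difference 5.28, adjusted p = 5.53e-06 from limma), taking for the undetected source the lowest signal of any detected probe on each array, and its other probe was at least 2.81-fold higher. In the 6 other tissues Nkx2-3 had mean levels of 4.80 to 5.10, so that peritoneal mesothelium stood alone among the 8 tissues.

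Isl1, a LIM homeobox factor of heart progenitors, pancreatic islets and motor neurons, had 11.12, 11.39 and 11.48 in peritoneal mesothelium, against 8.35, 8.15 and 7.64 in pleural and pericardial mesothelium. The Isl1 difference of 3.29 was the next largest of the list (adjusted p = 7.35e-05 from limma). Of 16 Hox probes, members of the clusters that pattern the body axis, 4 were kept, all 4 of them were higher in peritoneal mesothelium, and the other 12 were not detected on all arrays of either source. Hoxa7† had 9.92, 10.33 and 9.67 in peritoneal mesothelium, against 7.01, 7.53 and 6.94 in pleural and pericardial mesothelium (difference 2.81, adjusted p = 2.5e-05 from limma). Hoxd4† had 8.42, 8.14 and 8.07 in peritoneal mesothelium and was detected on no pleural and pericardial array, and was at least 4.17-fold higher. Hoxd8† and Hoxb2† were higher by 1.13 and 0.63, the smaller of these with an adjusted p of 0.0229 from limma that became 0.103 without the block. In bladder, mean levels of Hoxa7† and Hoxd4† were 9.43 and 8.59, close to the 9.98 and 8.21 of peritoneal mesothelium, while heart had 5.28 and 5.15.

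The 2 factors lower in peritoneal mesothelium were Tbx18†, a T-box factor of the embryonic epicardium and sinus node, and Prrx1†, a homeobox factor of limb and craniofacial mesenchyme. Tbx18† was detected on no peritoneal array, with 4.64, 4.88 and 4.73 there, against 6.75, 6.69 and 6.43 in pleural and pericardial mesothelium, and was at least 1.35-fold lower (adjusted p = 0.000159 from limma). Prrx1† was likewise detected on no peritoneal array and was at least 1.35-fold lower. The related Prrx2 differed by 0.21 and did not pass (adjusted p = 0.259 from limma). Both probes were dim, and the bounds are small.

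**Figure D3:**
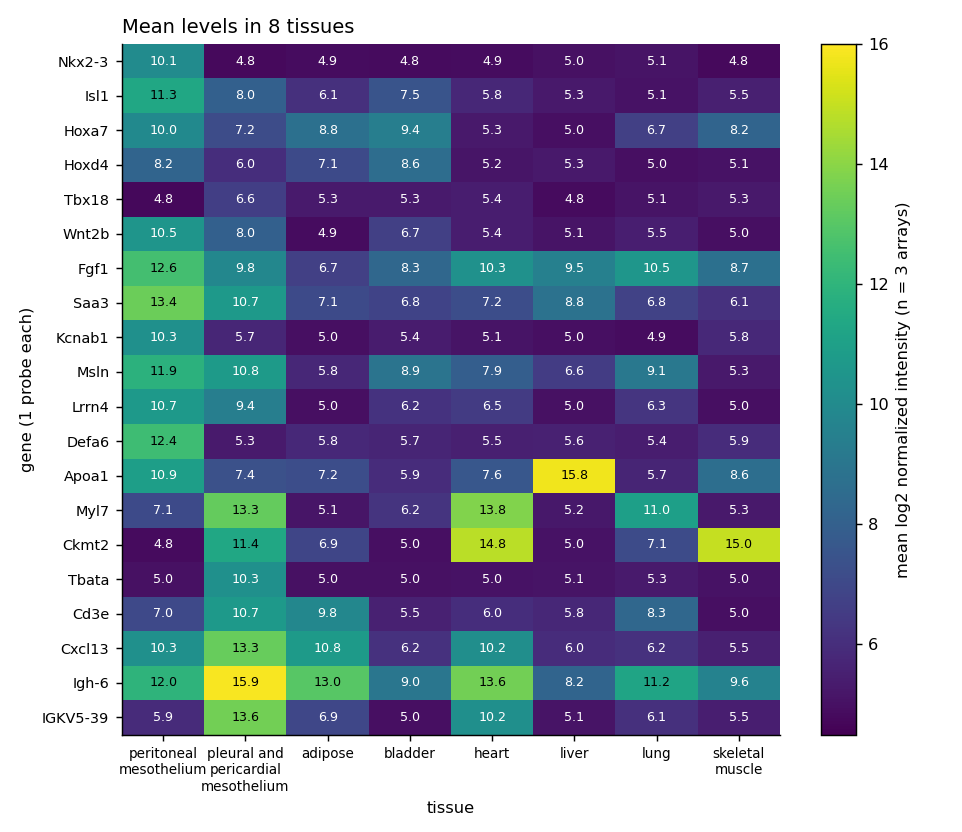
Mean log2 normalized intensity of 20 genes, 1 probe each, in the 8 tissues of the series (n = 3 arrays per tissue), with peritoneal mesothelium in the left column and pleural and pericardial mesothelium next to it. Nkx2-3 at 10.06 and Defa6 at 12.43 were high in peritoneal mesothelium alone, whereas Myl7† and Ckmt2† at 13.27 and 11.36 in pleural and pericardial mesothelium were also high in heart.

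Secreted signals were mostly higher in peritoneal mesothelium. Of 25 kept probes of 26 in this list, 18 were higher, 2 were lower and 5 did not pass (median difference 1.48 over those kept and 1.45 over all 26). Over all probes kept, 19.8% were higher and 15.6% lower. The study's tables, built on these arrays, named 23 of the 25, which are thus no independent evidence of direction. Of the 25, 3 were detected in peritoneal mesothelium only and 1 in pleural and pericardial mesothelium only, and had to differ in that direction. Fgf1, a growth factor for fibroblasts and endothelium, had 11.58, 12.89 and 13.21 in peritoneal mesothelium, against 9.14, 10.07 and 10.26 in pleural and pericardial mesothelium. Replicate 1 was the lowest array of both sources for Fgf1, and the pairs differed by 2.44, 2.82 and 2.95 (mean 2.73, adjusted p = 4.65e-05 from limma). Wnt2b, a canonical Wnt ligand, had 10.02, 10.55 and 10.92 in peritoneal mesothelium, against 7.42, 8.39 and 8.26 in pleural and pericardial mesothelium (difference 2.47, adjusted p = 6.9e-05 from limma). Dlk1, a non-canonical Notch ligand that holds preadipocytes undifferentiated, was higher by 2.83 and 2.19 with its 2 probes. Fgf9, the mesothelial ligand of embryonic lung growth, was higher by 2.03† with 1 probe and, with another detected on no pleural and pericardial array, by at least 2.59-fold, while Gas6, a ligand of the receptor Axl, was higher by 2.00, and the growth hormone releasing hormone gene Ghrh was detected only in peritoneal mesothelium and was at least 1.91-fold higher.

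Cxcl13 and Calcb were the 2 signals of this list that were lower. Cxcl13, the chemokine that draws B cells into follicles and serous cavities, had 10.83, 10.32 and 9.70 in peritoneal mesothelium, against 13.46, 13.06 and 13.41 in pleural and pericardial mesothelium. Its difference of -3.02 was an 8.12-fold change (adjusted p = 0.000139 from limma), and adipose and heart, at mean levels of 10.76 and 10.20, lay near peritoneal mesothelium. Calcb, a calcitonin gene-related peptide, was detected on no peritoneal array and differed by -1.15, at least 1.09-fold. Igfbp5 differed by -0.40 and -0.41† and did not pass (adjusted p = 0.0963 and 0.0525 from limma), nor did the enkephalin precursor gene Penk at 0.52 (adjusted p = 0.11 from limma).

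Receptors and surface proteins showed the same split. Of 21 kept probes of 22, 18 were higher in peritoneal mesothelium, 1 was lower and 2 did not pass (median difference 1.44 over those kept). Over all probes kept, 19.8% were higher and 15.6% lower. All 21 were named by the study's tables, which were built on these arrays, and are no independent evidence of direction. Of the 21, 5 were detected in peritoneal mesothelium only and 1 in pleural and pericardial mesothelium only, and had to differ in that direction. Cd109, a co-receptor that restrains TGF-beta signalling, had 8.63, 9.41 and 8.96 in peritoneal mesothelium, against 6.55, 6.01 and 5.98 in pleural and pericardial mesothelium, a difference of 2.82, and its other probe was detected only in peritoneal mesothelium. Il31ra, a subunit of the interleukin 31 receptor, was detected on no pleural and pericardial array and was at least 3.38-fold higher. The orphan receptor Gpr176 was the exception, since it was detected on no peritoneal array and was at least 1.59-fold lower (adjusted p = 0.000294 from limma). Flrt2 was close to equal in both sources, with a difference of 0.04 and a 95% interval of -0.28 to 0.37.

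Genes of retinoid uptake and synthesis, a small list, had 3 of 4 kept probes higher in peritoneal mesothelium, against 19.8% of all probes kept. Of the 4, 3 were named by the study's tables, which were built on these arrays, and are no independent evidence of direction. In addition, 1 of the 4, Stra6, was kept through peritoneal mesothelium only and had to differ in this direction. Stra6, the receptor through which cells take up retinol, had 7.69, 7.42 and 8.33 in peritoneal mesothelium and was not detected on any pleural and pericardial array, and was at least 3.17-fold higher. Dhrs9, a retinol dehydrogenase, and Aldh1a1†, which oxidizes retinal to retinoic acid, were higher by 2.02 and 1.49, and the remaining member was Aldh1a2, given above.

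Every kept probe of the extracellular matrix was higher in peritoneal mesothelium. This held for 25 of 25 kept probes (29 in the list), against 19.8% of all probes kept, with a median difference of 1.44 over those kept and 1.43 over all 29. Of those kept, 17 were named by the study's tables, which were built on these arrays, and are no independent evidence of direction. The other 8 were named by gene number. Of the 25, 1 was detected in peritoneal mesothelium only and had to differ in this direction. Col6a1, a chain of the microfibrillar collagen VI, had 13.52, 13.44 and 13.92 in peritoneal mesothelium, against 11.44, 11.30 and 11.41 in pleural and pericardial mesothelium, with a difference of 2.24 (adjusted p = 8.14e-05 from limma). The other probe of Col6a1 gave 2.11 and Col6a2 gave 2.42, and these collagen VI levels did not overlap between the sources. Col1a1†, the main fibrillar collagen of connective tissue, was higher by 1.90, and the laminin chain gene Lamc3 by 2.83. A probe of Dcn†, the proteoglycan decorin, passed at 1.24, but its adjusted p from limma was 0.304 without the block.

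Enzymes that process collagen and proteases of the matrix were higher for 17 of 17 kept probes (21 in the list, median difference 1.40 over those kept), against 19.8% of all probes kept. Of the 17, 16 were named by the study's tables, which were built on these arrays, and are no independent evidence of direction. Cpz, a carboxypeptidase that binds Wnt proteins, had 8.90, 8.86 and 8.91 in peritoneal mesothelium, against 7.08, 6.11 and 5.96 in pleural and pericardial mesothelium, a difference of 2.51. Plat, tissue plasminogen activator, through which mesothelium clears fibrin from its surface, was higher by 1.98 (adjusted p = 0.000159 from limma). Adamts2 and Mmp24 were higher by 1.67 and 1.63.

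Genes best known from neurons and other excitable cells formed a further group. Of 22 kept probes of 31, 18 were higher in peritoneal mesothelium, none was lower and 4 did not pass, against 19.8% higher and 15.6% lower over all probes kept. The median difference was 1.63 over those kept and 1.20 over all 31. The study's tables, built on these arrays, named 21 of the 22, which are thus no independent evidence of direction. Of the 22, 5 were detected in peritoneal mesothelium only and had to differ in this direction. Kcnab1, a beta subunit of voltage-gated potassium channels, had 9.94, 10.46 and 10.39 in peritoneal mesothelium, against 6.08, 5.73 and 5.40 in pleural and pericardial mesothelium. The Kcnab1 difference of 4.52 was 22.9-fold (adjusted p = 3.15e-05 from limma), and the 6 other tissues had means of 4.89 to 5.81. Gria3, a subunit of AMPA glutamate receptors, was higher by 2.83 and Cacna1g, a T-type calcium channel, by 2.44. Aplp1 at 0.27 and 1 probe of Celf4† at 0.20 did not pass (adjusted p = 0.146 and 0.309 from limma).

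**Figure D4:**
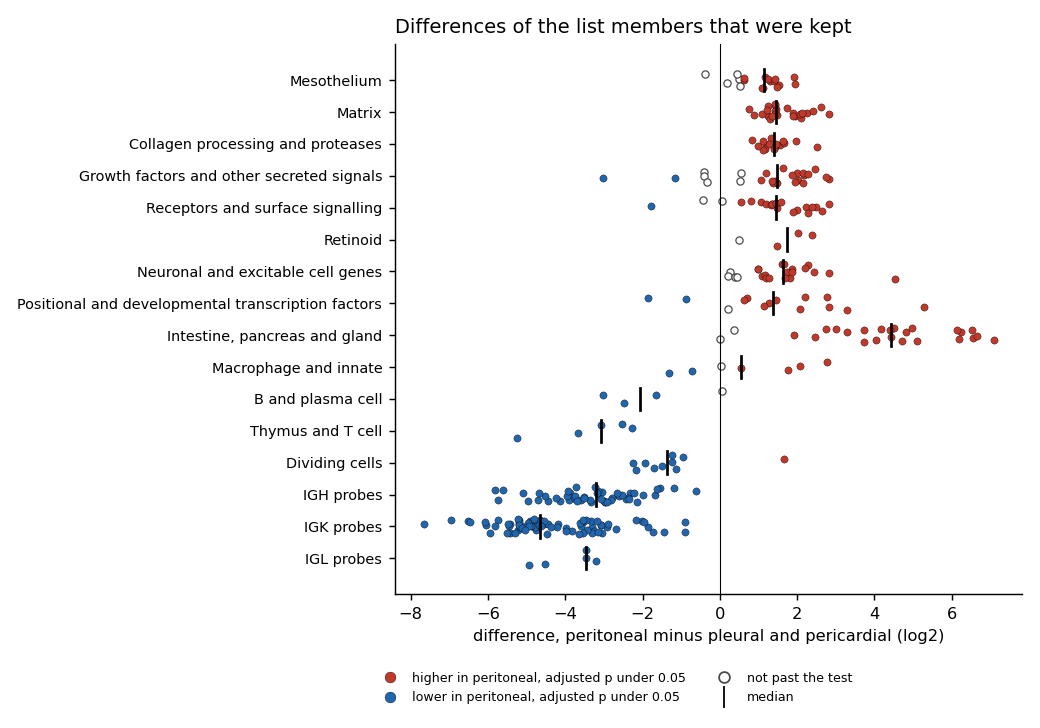
Difference of each kept probe of 16 lists (x axis, log2, peritoneal minus pleural and pericardial), filled where the adjusted p from limma was under 0.05, with the median of each list as a bar. All 25 matrix probes and all 17 probes of collagen processing lie to the right of 0, and all 138 immunoglobulin probes and all 5 thymus and T cell probes to the left.

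Genes of intestine, pancreas and glands had the largest differences towards peritoneal mesothelium. Of 25 kept probes of 32 in this list, 23 were higher, against 19.8% of all probes kept, and none was lower. In peritoneal mesothelium only, 20 were detected, and the median difference was 4.43 over those kept and 3.88 over all 32. The 20 were kept through the source in which they were high and had to differ in this direction. Among them were 14 probes with Defa names, of alpha-defensins, the antimicrobial peptides of Paneth cells at the base of small intestinal crypts. All 14 passed, with differences of 3.01 to 7.09, and were detected on no pleural and pericardial array. The probe AY761185, counted with the defensins earlier, is not among these 14 and differed by 6.25. Defa6 had 13.34, 13.27 and 10.69 in peritoneal mesothelium, against 5.43, 5.39 and 5.20 in pleural and pericardial mesothelium, and was at least 77.8-fold higher (log2 difference 7.09, adjusted p = 7.22e-05 from limma). Peritoneal replicate 3 was the lowest of its group for 14 of the 14 defensin probes, and their mean level was 11.47, 11.37 and 8.61 on the peritoneal arrays, against 5.13, 5.16 and 5.12 on the pleural and pericardial arrays. Zg16, a protein of goblet cell and pancreatic secretory granules, had 12.04, 10.11 and 8.26 in peritoneal mesothelium, against 6.08, 5.51 and 5.62 in pleural and pericardial mesothelium (difference 4.40, adjusted p = 0.000969 from limma). Spink3, a trypsin inhibitor of the exocrine pancreas, had 11.54, 9.15 and 6.64 in peritoneal mesothelium, against 5.12, 5.09 and 5.03 in pleural and pericardial mesothelium, a spread among the peritoneal arrays wider than that of the defensins, and Svs5, a seminal vesicle protein, was higher by 3.73. The 2 kept members that did not pass were both probes of Lyz1†, a lysozyme shared by Paneth cells and macrophages, at 0.35 and -0.01. The other 23 were named by the study's tables, which were built on these arrays.

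The start regions of 3 defensin genes are shown because defensin probes led the differences towards peritoneal mesothelium, and because they show how alike these genes are before their starts. Each is the 250 bases before the annotated start on the plus strand, from RefSeq on GRCm38.p6. Capitals mark TATAAA and 2 copies of ATCAAAG, the reverse complement of CTTTGAT, which is a core of the motif of TCF and LEF factors. The regions are Defa20 at chr8:21509008-21509257, Defa22 at chr8:21162027-21162276 and Defa23 at chr8:21054790-21055039.
Defa20: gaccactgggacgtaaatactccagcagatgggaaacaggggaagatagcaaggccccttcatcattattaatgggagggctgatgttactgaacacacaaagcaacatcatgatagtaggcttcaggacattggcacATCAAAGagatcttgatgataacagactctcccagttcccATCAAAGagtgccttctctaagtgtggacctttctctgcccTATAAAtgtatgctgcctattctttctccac
Defa22: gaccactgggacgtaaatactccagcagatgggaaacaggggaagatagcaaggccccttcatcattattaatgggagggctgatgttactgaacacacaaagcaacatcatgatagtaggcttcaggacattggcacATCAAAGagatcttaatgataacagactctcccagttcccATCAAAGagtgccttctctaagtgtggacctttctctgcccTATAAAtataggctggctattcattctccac
Defa23: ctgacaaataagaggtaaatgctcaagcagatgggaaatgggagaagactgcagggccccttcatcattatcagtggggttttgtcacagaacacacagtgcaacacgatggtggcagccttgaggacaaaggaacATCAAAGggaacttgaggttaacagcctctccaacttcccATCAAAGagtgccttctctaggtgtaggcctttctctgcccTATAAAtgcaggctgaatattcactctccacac

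The 2 copies of ATCAAAG began 112 and 72 bases before the start in Defa20 and Defa22 and 114 and 74 bases before it in Defa23, while TATAAA began 31 bases before it in Defa20 and Defa22 and 33 bases in Defa23. Searched on both strands, CTTTGAT was in 13 of 17 defensin regions of this length, against 1053 of 32851 regions of all genes, or 3.21%, and 2 or more copies were in 9 of the 17, against 27 regions, or 0.0822%. TATAAA on either strand was in 16 of the 17, against 12.4% of all regions. A match is a description of these letters and does not show that a factor bound there. The regions of Defa20 and Defa22 shared 245 of 250 bases, and those of Defa21 and Defa22 all 250. The transcripts and the probes were not compared, and whether a defensin probe reads 1 gene or several was not tested.

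Probes that mark the neighbouring organs were read from the arrays of those organs alone. Such a signature probe was detected on all 3 arrays of an organ and was at least 10-fold higher there than in each of the other 5 tissues. Of 112 kept probes of the 438 in the liver signature, 69 were higher in peritoneal mesothelium and 9 were lower, against 19.8% and 15.6% of all probes kept. Of the 112, 15 were detected in peritoneal mesothelium only and 1 in pleural and pericardial mesothelium only, and had to differ in that direction. The mean level over all liver probes was 6.41, 6.44 and 5.79 on the peritoneal arrays, against 5.58, 5.77 and 5.69 on the pleural and pericardial arrays, so that peritoneal replicate 3 stood close to the other source. Apoa1†, an apolipoprotein of liver and small intestine, had 12.71, 10.99 and 9.11 in peritoneal mesothelium, against 6.83, 7.71 and 7.55 in pleural and pericardial mesothelium (difference 3.57, adjusted p = 0.0072 from limma). Cyp3a11†, a cytochrome defining hepatocytes, was detected on none of the 6 arrays. Without the block, only 35 of the liver probes were higher.

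Striated muscle and heart probes went the other way. Of 22 kept probes of the 39 in the heart signature, 20 were lower in peritoneal mesothelium and 1 was higher. Over all probes kept, 15.6% were lower and 19.8% higher. However, 16 of the 22 were detected in pleural and pericardial mesothelium only, were kept through that source and had to differ in this direction. The mean over the 39, kept or not, was 5.51, 5.58 and 5.58 on the peritoneal arrays, against 7.35, 8.11 and 8.20 on the pleural and pericardial arrays. Myl7†, the atrial myosin light chain, had 7.37, 7.06 and 6.85 in peritoneal mesothelium, against 12.97, 13.15 and 13.70 in pleural and pericardial mesothelium (difference -6.18, adjusted p = 1.09e-05 from limma). In heart the mean of Myl7† was 13.82 and in lung 10.99. Myh6†, the cardiac myosin heavy chain, was detected on 2 of 3 pleural and pericardial arrays, with 5.82, 7.92 and 9.03 there, and the ryanodine receptor Ryr2† on none.

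Ckmt2†, the sarcomeric mitochondrial creatine kinase, was detected on no peritoneal array, had 10.64, 11.71 and 11.73 in pleural and pericardial mesothelium, and was at least 36.1-fold lower in peritoneal mesothelium (adjusted p = 7.33e-06 from limma). Fabp3†, the heart fatty acid binding protein, differed by -6.30, and the translation factor Eef1a2† of muscle and neurons, detected on no peritoneal array, was at least 22.1-fold lower. Of 50 kept probes of the 122 in the skeletal muscle signature, 39 were lower in peritoneal mesothelium and 5 were higher. Of these 50, 21 were detected in pleural and pericardial mesothelium only and 2 in peritoneal mesothelium only, and had to differ in that direction. For this signature and those below, the shares over all probes kept were 15.6% lower and 19.8% higher. The defining myosin Myh1† was detected on none of the 6 arrays. The bladder signature had 20 probes higher in peritoneal mesothelium and 6 lower of 32 kept, with a median difference of 0.75 over those kept and 0.08 over all 99. Of these 32, 5 were detected in peritoneal mesothelium only and 2 in pleural and pericardial mesothelium only, and had to differ in that direction. The lung signature had no one direction, with 8 probes higher and 12 lower of 26 kept, and for adipose 6 were higher and 3 lower of 27. The adipocyte gene Fabp4† had a difference of 0.04 (adjusted p = 0.93 from limma). This probe marks fat weakly, with means of 7.11 in adipose and 6.48 in skeletal muscle, and was detected on 2 of 3 peritoneal arrays. The endothelial adhesion molecule gene Pecam1† was lower in peritoneal mesothelium, with a difference of -1.02 (adjusted p = 0.0016 from limma) and the same direction in all 3 pairs, although the ranges of the sources overlapped.

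**Figure D5:**
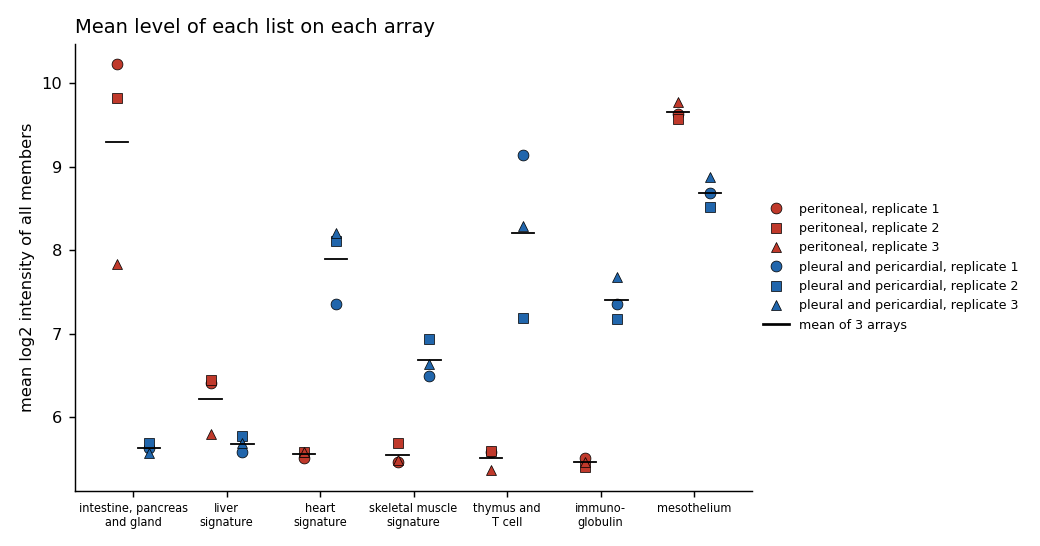
Mean log2 normalized intensity over all members of 7 lists on each of the 6 arrays, with peritoneal arrays left and pleural and pericardial arrays right in each list and the mean of 3 arrays as a bar. Intestinal genes fell to 7.84 on peritoneal replicate 3, against 10.22 and 9.82 on the other peritoneal arrays, while the mesothelium list stayed at 9.57 to 9.77 on all 3.

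These organ lists moved with the source difference, and their part in the other results was not tested. Levels by array of Nkx2-3, Isl1 and Col6a1, named here out of longer lists, are given beside them as a description only. The intestinal list holds mostly genes of gut epithelium and glands, and RNA of gut wall mesenchyme was not followed. Peritoneal replicate 3 had the lowest intestinal mean, 7.84 against 10.22 and 9.82. On the same array the Nkx2-3 level was 10.20 beside 9.73 and 10.25, the Isl1 level 11.48 beside 11.12 and 11.39, and the Col6a1 level 13.92 beside 13.52 and 13.44. Pleural and pericardial replicate 1 had the lowest heart mean, 7.35 against 8.11 and 8.20, and the highest thymus and T cell mean, 9.14 against 7.18 and 8.28.

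Antibody genes were lower in peritoneal mesothelium. Of 300 immunoglobulin probes, 138 were kept, all 138 were lower, 81 were detected in pleural and pericardial mesothelium only, and for 137 every pleural and pericardial array lay above every peritoneal array. Over all probes kept 15.6% were lower, but only 21 of the immunoglobulin probes were detected on all 3 peritoneal arrays, so that most were kept through the source in which they were high and had to differ in this direction. By chain, 54 of 142 heavy chain probes were kept, with a median difference of -3.20, 79 of 146 kappa probes with -4.65 and 5 of 12 lambda probes with -3.46. Over all probes of a chain, kept or not, the medians were -0.84 for heavy, -1.99 for kappa and -0.14 for lambda. IGKV5-39, a kappa variable segment, had 5.45, 5.37 and 6.89 in peritoneal mesothelium, against 13.23, 13.53 and 13.94 in pleural and pericardial mesothelium (difference -7.66, adjusted p = 4.68e-06 from limma). IGKV15-103 was detected on no peritoneal array and was at least 93.6-fold lower, and the heavy chain variable segment IGHV1S35 at least 29.6-fold lower. Variable segments resemble each other, so that a probe may read more than the segment it is named for.

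The IgM constant region was present in both sources. The IgG constant region gene Ighg3† was instead detected on 1 of 3 peritoneal arrays, with levels of 5.98, 8.05 and 5.25. In pleural and pericardial mesothelium Ighg3† had 12.06, 12.04 and 11.87 and was detected on all 3 arrays. Igh-6, the IgM heavy chain, had 12.51, 11.43 and 12.04 in peritoneal mesothelium, against 15.97, 15.76 and 15.97 in pleural and pericardial mesothelium, a difference of -3.91 (adjusted p = 2.77e-05 from limma). On pleural and pericardial replicates 1 and 3 this was the highest of all probe levels, a value that the normalization makes equal on every array, so that this difference is limited by the top of the scale. Its probe with the identifier IGHM gave -4.44, and the lambda constant region probes IGLC1, IGLC2 and IGLC3 gave -4.52, -3.46 and -3.46. The smallest difference among those kept was -0.63, for IGHV5S21, whose levels overlapped between the sources. In the tissues outside the comparison, IGKV5-39 had a mean of 10.24 in heart and 4.95 to 6.93 in the others, and Igh-6 had 13.56 in heart.

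Of the B and plasma cell list, 4 of 5 probes were kept and 3 were lower in peritoneal mesothelium, against 15.6% of all probes kept. These were Cxcl13 at -3.02, Tnfrsf17, the survival receptor of plasma cells, at -2.48, and Zbtb32, a transcriptional repressor of lymphocytes, at -1.66. All 3 come from the study's class for pleural and pericardial mesothelium alone, built on these arrays, and are no independent evidence of direction. The plasma cell factor gene Xbp1† at 0.05 did not pass (adjusted p = 0.71 from limma). Macrophage genes were divided, with 4 of 7 kept probes higher and 2 lower, and 5 of the 7 were named by the study's tables, built on these arrays. Saa3, an acute phase apolipoprotein, had 13.88, 13.38 and 13.02 in peritoneal mesothelium, against 11.03, 10.41 and 10.53 in pleural and pericardial mesothelium (difference 2.77, adjusted p = 4.13e-05 from limma), and Trem2, a lipid receptor of macrophages, and complement component C2 were higher by 2.07 and 1.77. Fcna, a ficolin, and the lysosomal Cd68† were lower, at -1.32 and -0.72. Csf1r†, the receptor that defines the macrophage lineage, had 10.01, 9.65 and 10.11 in peritoneal mesothelium, against 10.13, 9.61 and 9.95 in pleural and pericardial mesothelium, and its difference of 0.03 did not pass (adjusted p = 0.873 from limma).

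Thymus and T cell genes were lower in peritoneal mesothelium for all 5 kept probes of 7, against 15.6% of all probes kept. However, 4 of the 5 were detected in pleural and pericardial mesothelium only, through which they were kept, and had to differ in this direction. The study's tables, built on these arrays, named 3 of the 5. Tbata, a gene of thymic stroma, had 4.93, 5.28 and 4.88 in peritoneal mesothelium, against 11.29, 9.08 and 10.43 in pleural and pericardial mesothelium, at least 16.9-fold lower (adjusted p = 0.000194 from limma). In the 6 other tissues Tbata had means of 5.01 to 5.31. Rag1, a subunit of the recombinase of developing lymphocytes, was at least 6.13-fold lower, with 10.21, 7.75 and 8.46 in pleural and pericardial mesothelium, and Prss16, a thymus protease, at least 2.64-fold. Cd3e†, a chain of the T cell receptor complex, was present in both, with 7.60, 7.01 and 6.48 in peritoneal mesothelium, against 11.66, 9.84 and 10.62 in pleural and pericardial mesothelium (difference -3.68, adjusted p = 0.000111 from limma). Pleural and pericardial replicate 1 was the highest of its group and replicate 2 the lowest for Tbata, Rag1, Prss16, Cd3e† and Cd8b1† alike. Of 52 T cell receptor probes by identifier, 3 were kept, all of the beta chain, and TRBV1 and TRBV11 were at least 4.16-fold and 2.99-fold lower in peritoneal mesothelium, where neither was detected, and TRBV12-2 differed by -1.67.

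Genes of dividing cells were lower in peritoneal mesothelium for 9 of 10 kept probes of 14 (median difference -1.37 over those kept and -1.22 over all 14), against 15.6% of all probes kept. Of the 10, 6 were named by the study's tables, which were built on these arrays, and 1 was detected in pleural and pericardial mesothelium only. This last probe had to differ in this direction. The histone gene Hist1h2an had 11.77, 10.85 and 11.05 in peritoneal mesothelium, against 14.22, 12.88 and 13.28 in pleural and pericardial mesothelium (difference -2.24, adjusted p = 7.62e-05 from limma). Uhrf1, which maintains DNA methylation at replication, differed by -1.94 and Mki67†, the nuclear antigen of cycling cells, by -1.14. As with the thymus genes, pleural and pericardial replicate 1 was the highest of its group for Hist1h2an and Uhrf1, and the part of thymus cells in these differences was not tested. Anln, which encodes the cytokinesis protein anillin, was the exception, with 9.51, 10.22 and 9.93 in peritoneal mesothelium, against 8.05, 8.39 and 8.22 in pleural and pericardial mesothelium (difference 1.67, adjusted p = 0.000227 from limma).

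Serpina3b, a serine protease inhibitor, and the transcript AI324046 were, among genes named from the tables and held in none of these lists and not of immunoglobulins, those with the largest differences towards pleural and pericardial mesothelium. Serpina3b had 4.99, 5.30 and 5.91 in peritoneal mesothelium, against 9.23, 9.57 and 10.20 in pleural and pericardial mesothelium, and was at least 11.1-fold lower, with pair differences of -4.24, -4.28 and -4.29. AI324046 differed by -4.13 (adjusted p = 4.68e-05 from limma).

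By the study's classes, 31 of 48 kept probes listed as enriched in both sources were higher in peritoneal mesothelium, none was lower and 17 did not pass (51 in the class, median difference 0.83 over those kept and 0.74 over all). The class listed for peritoneal mesothelium alone had 221 of 228 kept probes higher and the class listed for pleural and pericardial mesothelium alone 115 of 122 lower, directions that the choice of these classes on the same arrays largely fixes. Named probes closest to equal, with a 95% interval inside 2-fold, included Lgals7, a galectin of stratified epithelia, at 0.01 with an interval of -0.42 to 0.44, Cybrd1, an iron reductase, at -0.01 with -0.38 to 0.36, and Isyna1, the inositol phosphate synthase gene, at -0.08 with -0.41 to 0.25. Of probes without a gene name, the largest differences were 5.94 for scl47449.2_635-S and 3.71 for scl47450.4_93-S, higher in peritoneal mesothelium, and -8.97 and -8.20 for scl33610.6.1_104-S and scl18853.7.1_146-S. The probe scl33610.6.1_104-S had 4.93, 6.14 and 5.24 in peritoneal mesothelium, against 13.97, 14.45 and 14.80 in pleural and pericardial mesothelium, was at least 298-fold lower, and was also high in heart and adipose at means of 12.56 and 12.05.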

How the data were processed

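Total RNA was hybridized to the Illumina Mouse Sentrix-6 BeadChip. The authors deposited, from BeadStudio, a signal intensity per probe with background subtracted and no normalization between arrays, and a detection score as a fraction between 0 and 1. They also deposited intensity values quantile normalized with Lumi, used here only as an alternative. The detection scores step by 1 in 1616, the number of negative controls they imply, and 10 values off these steps were left out of that inference.

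The intensities were made positive with the normexp step (offset 16), quantile normalized over 24 arrays and put on the log2 scale. A block for the replicate number and a term for the source were fitted to the 6 mesothelium arrays with limma 3.58.1 in R 4.3.3, and p-values were adjusted by Benjamini-Hochberg over the 12193 probes kept. The block was used because deviations from the source mean correlated at 0.61, 0.62 and 0.65 for arrays with equal numbers and at -0.41 to -0.20 for arrays with unequal numbers, and 1954 probes (16.0%) varied with the number in the F-test. The labels do not say what a number stands for. The residual degrees of freedom were 2, the prior degrees of freedom 4.84 and the median SE 0.15. On simulated data with 200 changed probes among 12193, 74% of probes changed by 1 on the log2 scale and 100% of those changed by 2 were called, and 5.95% of calls were false. The simulated noise was normal, independent between probes and drawn from the variance prior of the fit itself. In the comparison 35.4% of probes were called, a far larger share, so these rates need not hold for its calls. The number of arrays limits the precision.

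Where a source had no detected array, a fold is given only as a bound ("at least"), with that source set on each array to its own signal or, if higher, to the dimmest detected probe of the array. Of 46120 probes, 350 were named by the study's tables, 349 by an immunoglobulin or T cell receptor identifier and 9735 by the gene number in the identifier, matched to the RefSeq gene table of GRCm38.p6. The lists, the comparison and its members were chosen with earlier results of these data known. Named genes were the 12 with the largest difference in each direction (at most 3 immunoglobulin identifiers), the in-situ candidates with Wt1, up to 4 of each list and 2 that did not pass, those closest to 0 and up to 2 unnamed probes per direction. Other genes named were chosen after their values were seen. Alternatives covered the block, the arrays fitted, background, normalization, filter and variance prior, and leaving out arrays.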

Additional observations from a re-analysis of the deposited data

How the results depend on the processing

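Across 215 named probes and 21 alternatives, 134 kept their direction and their side of the threshold under all of them, 72 lost the call under at least 1, 9 gained it under at least 1, and none reversed. No probe called in the blocked comparison changed sign under the 12 alternatives that kept all arrays. At most 4 of the 4321 did so when 1 array was left out without the block. Alternatives that changed only the block, the filter, the variance prior or the use of the other tissues leave each difference unchanged. No sign could change under these, for the named probes as well. Direction was thus tested only where the background or the normalization changed or arrays were left out. The cause of the changes below was not tested, except that a filter for detection on all 6 mesothelium arrays removes the probes seen in 1 source only.

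Without the replicate block for the pairing of arrays, 1210 probes were higher and 1050 lower in peritoneal mesothelium, 425 were higher past the B-statistic rule, and 35 liver and 6 lung signature probes were called higher and lower. With all 24 arrays and no block the counts were 1599 and 1181, with 483 lower past the B rule and 7 lung probes lower, and with all 24 arrays and a block for the mesothelium arrays 484 were lower past the B rule. The rows off the score steps, when included in the inference of background, left 1443 higher and 901 lower, and 269 and 182 past the B rule. In that setting the probes called higher were 7 of the transcription factors, 10 of the neuronal, 5 of the intestinal, 13 of the liver and 6 of the bladder list, and those lower were 1 of the thymus, 2 of the dividing cell, 20 of the heavy chain, 8 of the heart, 17 of the skeletal muscle and 2 of the lung list and 55 of the pleural and pericardial class. Among probes detected on all 6 arrays, 376 were lower past the B rule. There 5 transcription factor, 11 receptor, 8 neuronal, 2 intestinal, 30 liver, 8 bladder and 133 peritoneal class probes were higher, and 1 thymus, 3 dividing cell, 1 heavy chain, 16 kappa chain, 2 heart, 3 skeletal muscle, 6 lung and 15 pleural and pericardial class probes were lower. A trended and robust variance prior gave 42 liver probes higher. Signatures at 5-fold had medians over all members of 0.13 for bladder and -0.28 for skeletal muscle.

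Leaving out 1 array or 1 pair in turn gave ranges of 735 to 2203 probes higher and 719 to 1842 lower, and of 225 to 644 higher and 355 to 713 lower past the B rule. With the block, the counts were 2203 and 1842 without replicate 1, 1789 and 1428 without replicate 2, and 1588 and 1304 without replicate 3. The ranges for lists were 7 to 11 transcription factors, 11 to 18 receptors, 18 to 73 liver, 8 to 18 bladder and 19 to 35 shared class probes higher, and 4 to 9 dividing cell and 3 to 9 lung probes lower.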

Other observations

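Levels on the mesothelium arrays were correlated with the mean levels of the 6 other tissues, as a description across probes, which share the normalization and are not independent. Adipose was the closest tissue to every array of both sources, at 0.845 to 0.859 for peritoneal mesothelium and 0.872 to 0.900 for pleural and pericardial mesothelium. Bladder followed lung closely for peritoneal mesothelium, at 0.797 to 0.822 and 0.808 to 0.830, and correlated at 0.737 to 0.763 with pleural and pericardial mesothelium. Heart correlated at 0.722 to 0.741 with peritoneal mesothelium and at 0.793 to 0.833 with pleural and pericardial mesothelium, and these ranges did not overlap.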
